A study of Arabidopsis thaliana with 13 samples.

Results

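The genes described here are those of the plastid genome and of the mitochondrial genome of Arabidopsis, kept apart throughout. They were chosen by locus identifier alone: every row whose identifier starts with ATCG is a plastid member and every row whose identifier starts with ATMG is a mitochondrial member. This gave 133 plastid and 152 mitochondrial members, 285 in all, of 37184 rows in the dry seed table and 37336 rows in the single-seed table. The study asked how seed size relates to dormancy, and measured RNA of Col-0 seeds by 3′ RNA-seq with barcoded oligo(dT) primers. The paper describes the seeds used to induce secondary dormancy as after-ripened. In dry seeds, 4 seed pools were each sorted into small, medium and large seeds, which gave 12 libraries, 4 per size. In imbibed seeds, small and large seeds were kept on water-soaked paper at 30 °C in the dark to induce secondary dormancy. They were taken one by one, either after 3 days (3d) or after 7 days followed by 24 h of recovery (7d + 24h). According to the paper, recovery was in constant light at a lower temperature. Each of these 4 conditions had 96 seeds in 3 libraries of 32 seeds, so 12 libraries and 384 seeds in all. These 3 libraries divide the seeds of a condition, so p-values in imbibed seeds measure the spread between such libraries only. All seeds carried the wild-type Col-0 background, and no mutant, agent or transgene separated the groups. RNA of the dry seed pools was purified, whereas single seeds were processed as crude extracts, so the dry and the imbibed tables are set side by side and not tested against each other.

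Plastids and mitochondria keep small genomes of their own. The plastid genome encodes core subunits of the photosystems, the cytochrome b6f complex and ATP synthase, parts of the plastid ribosome and RNA polymerase, and a subunit of the Clp protease. The mitochondrial genome encodes subunits of the respiratory chain and of ATP synthase, proteins for their assembly, and ribosomal parts. Both organelles are present in the dry embryo in an undifferentiated, low-activity state, and both resume transcription after imbibition. A poly(A) tail on an organelle transcript is usually short-lived and marks RNA for decay, unlike the stable tail of a nuclear mRNA. Oligo(dT) priming therefore captures these transcripts only in part, either at such tails or at runs of A inside the transcript, and a count here is not a measure of the whole transcript pool.

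Total gene counts ranged from 554305 to 2079317 in dry libraries and from 2326352 to 5851052 in single-seed libraries, and single seeds held between 3962 and 463684 counts. In single seeds, 9.76% of reads lay in no annotated gene. The small-seed library of pool 2 was the shallowest dry library and had the highest plastid and mitochondrial shares, so the members in which it stands apart are also given without it. Seed storage genes were high in dry seeds: the summed counts of 7 storage and oil-body genes reached 134963 to 198096 CPM (counts scaled to a common library total, the usual per-sample unit) in small, 87950 to 138220 in medium and 70752 to 82611 in large seeds. In imbibed seeds they were at 146951 to 156896 CPM at 3d and 8936 to 16117 CPM at 7d + 24h. Of the 3 endosperm markers, EPR1 was at 25056 CPM or more in dry seeds, MAN7 was at 5.80 CPM or less and ZOU had no count there.

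Counts were found for 90 of the 133 plastid and 60 of the 152 mitochondrial members in dry seeds, and for 99 and 67 in imbibed seeds. Much of the mitochondrial genome is also present as a copy in nuclear chromosome 2, and annotation notes of chromosome 2 genes name 53 mitochondrial loci. Of these 53, 40 were at 0 in dry seeds and 37 in imbibed seeds. Of the 99 other mitochondrial loci, 52 were at 0 in dry seeds and 48 in imbibed seeds. Sequences were not compared, so some of these 99 may have a copy too. The chromosome 2 rows themselves took 0.00227% to 0.00413% of counts in small, 0.00106% to 0.00252% in medium and 0.00130% to 0.00173% in large dry seeds, and every small-seed value lay above every large-seed value. Their part in the mitochondrial counts was not tested. The row for reads that map to several places was at 0, so reads of near-identical copies cannot be placed. A count of 0 at loci with such copies says nothing of their transcription. The limit also covers plastid genes that lie at several places in the plastid genome, such as rps7, ndhB, ycf2, rpl23 and rpl2. How many plastid loci at 0 are of this kind, and the effect on the plastid share, was not tested. A few rows carried most of the counts. In dry seeds ATCG00740 took 20.3% of all plastid counts and the top 6 plastid rows 70.0%, while RRN26, the large-subunit ribosomal RNA of mitochondria, took 83.5% of all mitochondrial counts. In imbibed seeds ATCG01130 took 24.2% of plastid counts and RRN26 70.9% of mitochondrial counts. Most ATCG and ATMG rows had no gene name in the annotation used here and are given by locus identifier, with no role. The 15 symbols used came from gene descriptions in lists that the study drew up on these samples, so whether a member has a name depends in part on how it behaved. In dry seeds all 9 plastid and all 4 mitochondrial members that were tested and named in this way passed the test of small against large seeds, against 4 of 19 and 2 of 7 tested members with no name. Counts by role are therefore given as descriptions and say nothing of a complex as a whole.

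A run of A on the sense strand can serve as a priming site. The annotated gene around its longest such run is shown for 5 members. These differed most between dry small and large seeds, or in the opposite direction. The sequences are from the RefSeq plastid genome of TAIR10.1 (named Pltd there), 60 bases each, 5′ to 3′ on the sense strand, with the longest run of A in capitals.
PSAB, bases 37901 to 37960, minus strand, coding: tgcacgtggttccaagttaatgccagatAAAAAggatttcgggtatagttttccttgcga
PSBA, bases 728 to 787, minus strand, coding: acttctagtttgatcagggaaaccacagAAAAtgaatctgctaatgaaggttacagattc
PETD, bases 76711 to 76770, plus strand, outside the coding parts: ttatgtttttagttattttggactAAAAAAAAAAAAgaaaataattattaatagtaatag
RPS14, bases 37158 to 37217, minus strand, coding: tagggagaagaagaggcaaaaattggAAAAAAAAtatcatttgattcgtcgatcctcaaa
RPS2, bases 15357 to 15416, minus strand, coding: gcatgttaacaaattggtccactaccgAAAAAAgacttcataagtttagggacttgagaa
All 11 plastid members with a symbol matched a gene of that genome. Over the 83 protein-coding plastid genes read, the longest run had a median of 6 bases and ranged from 2 to 14, and 59.0% of genes held a run of 6 or more. PSAB and PSBA, whose longest runs were 5 and 4 bases, were below that median. PETD held a run of 12 outside its coding parts, and RPS14 a run of 8. RPS2, which differed in the opposite direction, held a run of 6. A run is a description of the letters and not a mapped priming site. Only annotated gene spans were read, so transcript ends beyond them were not searched. Unnamed members, ATCG00740 and ATCG01130 among them, were not matched to genes, and their runs are not given.

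The summed shares separated the 2 genomes in dry seeds. Mitochondrial members took 0.823% ± 0.348 of gene counts in small seeds (SD, n = 4), 0.337% ± 0.108 in medium seeds and 0.235% ± 0.0532 in large seeds. Every small-seed library, at 0.553% to 1.31%, lay above every medium library, at 0.205% to 0.453%, and above every large library, at 0.159% to 0.279%. The ratio of means was 3.50 for small over large and 2.44 for small over medium seeds. An exact two-sided permutation test gave p = 0.0286 for each, the smallest p that 4 against 4 libraries allow. The Benjamini-Hochberg adjusted p over 14 share tests was 0.200 for each. With so few libraries per group, no adjusted share p could fall under 0.05, in dry or in imbibed seeds. The adjusted values therefore cannot decide whether shares differed. Leaving out one library at a time, the difference between small and large seeds stayed between 0.427 and 0.678 percentage points. The lowest of these was without the small-seed library of pool 2.
Plastid members took 0.283% ± 0.0776 in small, 0.238% ± 0.0752 in medium and 0.257% ± 0.0530 in large seeds. These ranges overlapped, and the exact permutation test of small against large seeds gave p = 0.543.

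**Figure D1:**
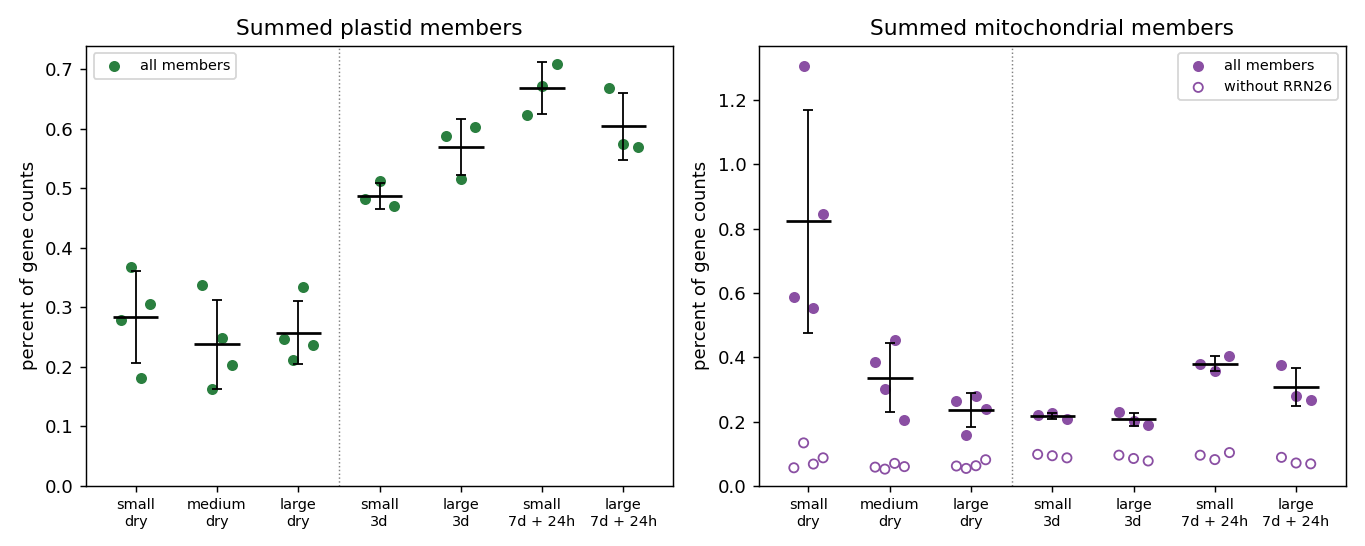
Percent of gene counts on plastid members (left) and mitochondrial members (right, open points without RRN26) in each of the 24 libraries by group, with points for libraries and lines for the mean ± SD of a group. In dry seeds the mitochondrial shares of small-seed libraries start at 0.553% and those of large-seed libraries end at 0.279%, while the plastid shares overlap.

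The mitochondrial difference in dry seeds lay largely in RRN26. RRN26 made up 87.8% to 90.4% of mitochondrial counts in small seeds and 66.0% to 77.6% in large seeds. Without it, the remaining mitochondrial members took 0.0560% to 0.134% in small and 0.0541% to 0.0811% in large seeds, ranges that overlapped (exact permutation p = 0.286). Values per library are in scaled CPM, which are CPM on the library total multiplied by its TMM scaling factor, the scale of the edgeR fits. RRN26 was at 6220, 13362, 6073 and 8615 scaled CPM in small seeds of pools 1 to 4, at 3382, 2509, 3898 and 1403 in medium seeds, and at 1863, 917, 2015 and 1460 in large seeds. All small-seed libraries were above all others, and in 3 of 4 pools the order was small, medium, large. The log2 difference between small and large seeds was 2.45 (SE 0.22, edgeR adjusted p = 2.3e-11), and 2.16 without the small-seed library of pool 2, which had the highest value.

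Small and large dry seeds were then compared member by member, with edgeR's quasi-likelihood test over all 8234 genes tested and an adjusted p under 0.05 as the threshold. Of these genes 14.7% passed, 8.44% with higher and 6.24% with lower values in small seeds. Only 30 plastid and 11 mitochondrial members had enough counts to be tested. For every gene, the filter needed enough counts only in as many libraries as a single size has. A row high in small seeds alone could enter so, and could hardly be called lower there. PETD, PSBC, PSBI and RPS4, described below, had mean CPM of only 10.4, 8.69, 7.80 and 7.90 over dry libraries. Counts by direction and medians are therefore descriptions of the tested rows. Among the 30 plastid members, 9 were higher and 4 lower in small seeds, with a median log2 difference of 0.47. Among the 11 mitochondrial members, 6 were higher and none lower, with a median of 0.75. The median over all genes tested was -0.014. The summed storage gene level given above moved in the same direction as these members across the 3 sizes, and its part in the result was not tested.

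Scaling bears on these values. Small-seed libraries had TMM factors of 0.814 to 0.898 and large-seed libraries 1.10 to 1.18. On library totals without these factors, a setting added after the data were seen, the median over all genes moved to -0.41. On that scale 7 plastid members were higher and 8 lower in small seeds, and 4 mitochondrial members were higher and 1 lower. The medians were 0.093 for plastid and 0.36 for mitochondrial members. The share of all genes called on that scale was not counted. The 9 plastid and 6 mitochondrial members called higher in small seeds on the TMM scale kept positive values.

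The named plastid members that were higher in small seeds included 4 of photosystems and 2 of the cytochrome b6f complex. Since the unnamed rows may hold further genes of these complexes, this is no count over either complex. PSAB, a core reaction-centre protein of photosystem I and the plastid row with the highest mean CPM in dry seeds, was at 1134, 1375, 853 and 1086 scaled CPM in small seeds of pools 1 to 4, at 846, 321, 455 and 192 in medium seeds, and at 308, 168, 293 and 200 in large seeds. Small and large seeds did not overlap, with a gap from 308 to 853, and medium seeds spanned from below the highest large-seed value to just under the lowest small-seed value. The log2 difference between small and large seeds was 2.20 (SE 0.23, edgeR adjusted p = 8.6e-10), or 2.09 without the small-seed library of pool 2. PSBA, the reaction-centre protein of photosystem II that is replaced most often in light, was at 42.7, 152, 77.6 and 71.2 scaled CPM in small seeds and at 21.5, 13.9, 12.5 and 14.6 in large seeds. Every small-seed value was above every large-seed value, and the log2 difference was 2.47 (SE 0.27, edgeR adjusted p = 2.5e-09), or 2.13 without the small-seed library of pool 2. PSBC, a core antenna protein of photosystem II, differed by 1.87, and PSBI, a small subunit of the same photosystem, by 1.66. PSBI lost the call with DESeq2 and when small-seed library 4, large-seed library 2 or large-seed library 4 was left out.

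PETD and PETB encode subunit IV and cytochrome b6 of the complex that passes electrons between the photosystems. PETD was at 16.8, 47.3, 19.1 and 19.1 scaled CPM in small seeds and at 3.40, 3.36, 5.22 and 1.04 in large seeds, a log2 difference of 2.71 (SE 0.41, edgeR adjusted p = 3.7e-06). PETB was at 44.2, 78.1, 45.6 and 69.5 scaled CPM in small seeds and at 14.7, 15.1, 22.4 and 14.6 in large seeds, a log2 difference of 1.72 (SE 0.26, edgeR adjusted p = 5.3e-06). In neither gene did small and large seeds overlap, and for PETD the small-seed library of pool 2 stood well above the other 3; without it the PETD difference was 2.35.

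Named ribosomal protein members were found in both directions. RPS14, of the small plastid ribosomal subunit, was at 30.5, 34.9, 29.6 and 27.8 scaled CPM in small seeds and at 10.2, 7.14, 7.82 and 5.20 in large seeds, a log2 difference of 2.00 (SE 0.28, edgeR adjusted p = 1.5e-06). RPS4 was higher by 1.51 (SE 0.45, edgeR adjusted p = 0.018), a call lost on library totals and without small-seed library 1, large-seed library 1 or large-seed library 2. RPS2, of the same subunit, was lower in small seeds: 29.0, 26.7, 9.86 and 27.8 scaled CPM against 27.2, 63.4, 55.3 and 66.5 in large seeds. Here the groups overlapped, since the large-seed library of pool 1 lay within the range of small seeds. The log2 difference was -1.42 (SE 0.29, edgeR adjusted p = 0.00051).

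RPS2 and 3 unnamed rows made up the 4 plastid members that were lower in small seeds. ATCG00740, the row with the most plastid counts over all dry libraries, was at 416, 456, 237 and 504 scaled CPM in small seeds and at 537, 492, 827 and 603 in large seeds, with overlap, and a log2 difference of -0.64 (SE 0.18, edgeR adjusted p = 0.011). ATCG01090 and ATCG00170 were each lower by 1.03 on the log2 scale, written here as -1.03. None of the 4 passed with DESeq2, which called 7 plastid members, all higher in small seeds. ATCG00740 and ATCG01090 also lost their calls without the small-seed or the large-seed library of pool 3. ATCG01130, the row with the third most plastid counts, had a log2 difference of -0.48 that did not pass (edgeR adjusted p = 0.070), and ATCG00540, outside the naming rule and chosen here after its value was seen, was higher by 0.98 (edgeR adjusted p = 0.039).

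**Figure D2:**
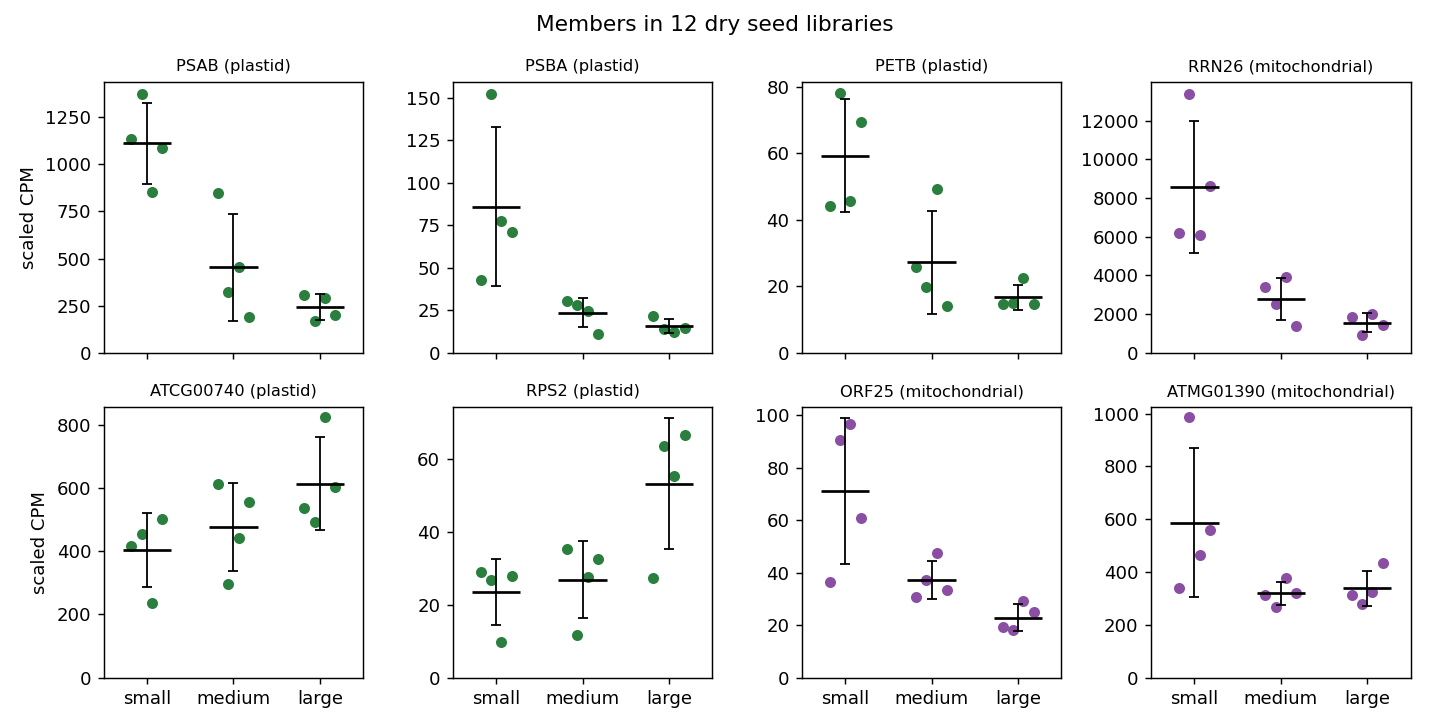
Scaled CPM (linear axes from 0) of 5 plastid and 3 mitochondrial members in the 12 dry seed libraries, one point per library with the mean ± SD of each size. PSAB, PSBA and RRN26 lie higher in all 4 small-seed libraries than in all 4 large-seed libraries, whereas ATCG00740 and RPS2 overlap and tend to lower values in small seeds.

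Within a library, a ratio of counts of 2 members does not depend on any scaling factor. PSAB and ATCG00740, a pair chosen after their values were seen, gave PSAB to ATCG00740 ratios of 2.16 to 3.60 in small seeds, 0.344 to 1.38 in medium seeds and 0.331 to 0.574 in large seeds. In small seeds PSAB had more counts than ATCG00740 in every library, and in large seeds fewer in every library. The summed plastid share, with means of 0.238% to 0.283% by size, did not show this difference.

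Besides RRN26, the named mitochondrial members that were higher in small seeds were ORF25, COX2 and NAD9. Of the other 7 tested mitochondrial members, which have no name, 2 were higher, and the median of the 7 was 0.14. ORF25, which encodes the b subunit of mitochondrial ATP synthase, was at 36.6, 90.4, 96.7 and 60.8 scaled CPM in small seeds, at 30.6, 37.0, 47.3 and 33.5 in medium seeds, and at 19.2, 18.05, 29.2 and 24.9 in large seeds. It was the member whose order was small, medium, large in all 4 pools among 7 members for which this was counted. Its log2 difference between small and large seeds was 1.68 (SE 0.22, edgeR adjusted p = 3.8e-07). COX2, a core subunit of cytochrome c oxidase, was at 13.7, 41.1, 33.9 and 38.2 scaled CPM in small seeds and at 15.8, 8.81, 13.6 and 12.5 in large seeds, a log2 difference of 1.37 (SE 0.29, edgeR adjusted p = 0.00089). NAD9, a subunit of complex I, was at 22.9, 49.3, 40.7 and 27.8 in small seeds and at 17.0, 10.49, 12.5 and 21.8 in large seeds, a log2 difference of 1.31 (SE 0.30, edgeR adjusted p = 0.0017). For COX2 the small-seed library of pool 1 lay within the large-seed range, and for NAD9 the groups were apart by a narrow margin. The unnamed rows ATMG01390 and ATMG01360 were higher by 0.79 and 0.66, and neither call held on library totals. The ATMG01390 call was also lost with DESeq2, and that of ATMG01360 without small-seed library 2, large-seed library 2 or large-seed library 3. The RRN26 difference was larger than that of ATMG01390, the unnamed row with the next most counts: the ratio of RRN26 to ATMG01390 counts was 13.1 to 18.4 in small, 4.38 to 10.8 in medium and 3.30 to 6.22 in large seeds.

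**Figure D3:**
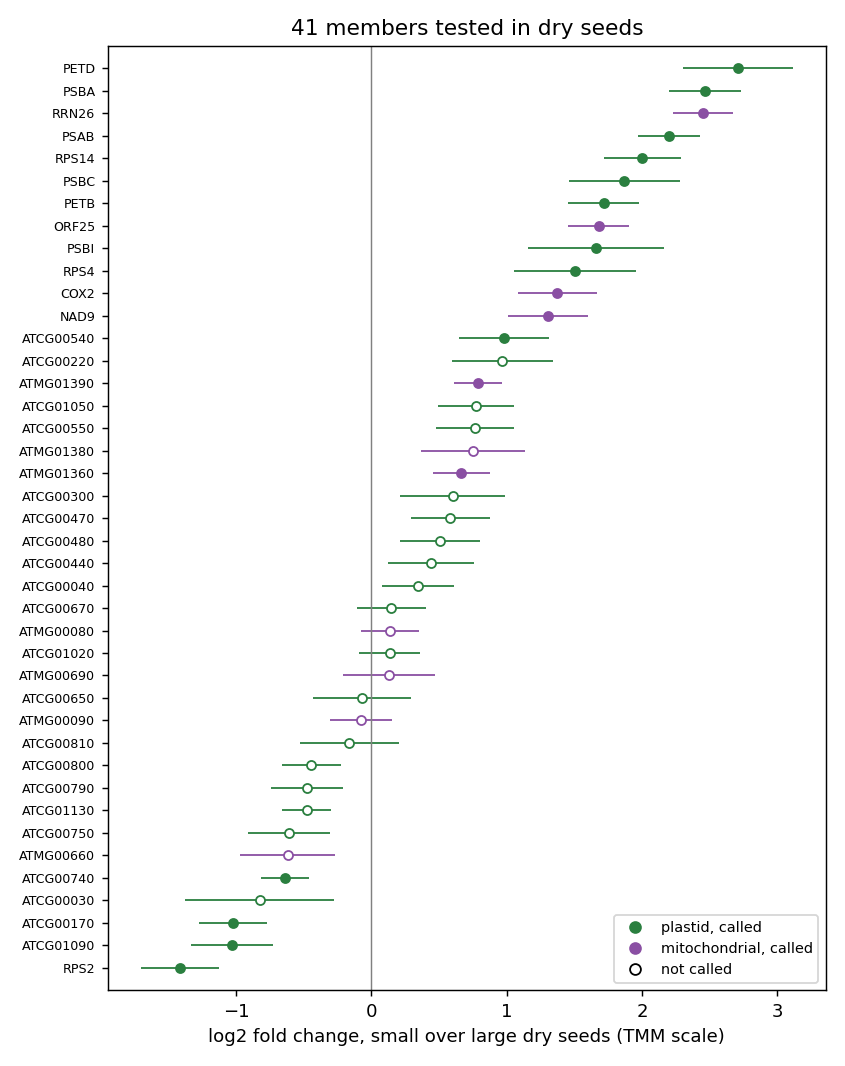
Log2 difference between small and large dry seeds, with bars of 1 SE, for the 41 tested plastid and mitochondrial members, filled where the edgeR adjusted p is under 0.05. On the TMM scale shown, 9 plastid and 6 mitochondrial members are called higher in small seeds and 4 plastid members lower, and none of these 4 is called by DESeq2.

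Medium seeds shared their comparisons with the same small-seed and large-seed libraries, so the values are given side by side. Against medium seeds, 3.51% of all genes passed. Small seeds had 5 plastid members higher, PETD by 2.09, PSBA by 1.81, PSAB by 1.30, RPS14 by 1.14 and PETB by 1.08, and none lower. They had 5 mitochondrial members higher, RRN26 by 1.61, NAD9 by 1.22, ORF25 by 0.98, ATMG01390 by 0.86 and ATMG01360 by 0.76, and none lower. ATMG01360 was lost in 8 of the alternative settings. PETD and ATMG01390 were lost with DESeq2, and RPS14 when libraries were thinned to one depth. NAD9 was lost without small-seed library 3, medium library 1 or medium library 4. The PETB call was lost without medium library 4, and that of ORF25 without small-seed library 3. Between medium and large seeds, where 0.146% of all genes passed, no plastid and no mitochondrial member passed in edgeR or DESeq2. At an unadjusted p under 0.05 there were 11 plastid and 3 mitochondrial members, beside 564 of all 8234 genes. RRN26 had a log2 difference of 0.84 (edgeR adjusted p = 0.10) and PSAB of 0.90 (edgeR adjusted p = 0.097). With seed pool as a block, 2 plastid members passed between medium and large seeds.

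A list of 28 nuclear genes for organelle transcription and RNA turnover was counted beside the members. It holds the phage-type RNA polymerases, the sigma factors, the proteins associated with the plastid-encoded polymerase (PAP), and ribonucleases such as RNase J and polynucleotide phosphorylase. In dry seeds 17 could be tested. Between small and large seeds 3 were lower in small seeds and none higher: PAP3 by -0.96, PAP9 by -1.21 and RNase J by -1.05. These 3 of 17 stand beside the 14.7% of all genes that passed, and 6.24% that were lower. The list's median was -0.34, against -0.014 over all genes. DESeq2 called 1 of them and the library-total scale 10, all lower in small seeds. On library totals the median over all genes was -0.41 and that of the list -0.75. The share of all genes called on that scale was not counted.

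After imbibition and 3d of induction, the plastid share was 0.488% ± 0.0219 in small and 0.569% ± 0.0469 in large seeds (SD, n = 3). The highest small-seed library, at 0.512%, was just below the lowest large-seed library, at 0.516%. The exact permutation test gave p = 0.1, the smallest p that 3 against 3 libraries allow, and an adjusted p of 0.233. The mitochondrial share was 0.218% in small and 0.207% in large seeds, with overlap. At 7d + 24h the plastid share was 0.669% ± 0.0432 in small and 0.605% ± 0.0563 in large seeds, and the mitochondrial share 0.380% ± 0.0233 and 0.308% ± 0.0597, both with overlapping ranges.

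Member by member, 71 plastid and 30 mitochondrial members could be tested among 16002 genes in imbibed seeds. Between small and large seeds at 3d, where 0.344% of genes passed, no member passed in edgeR or DESeq2. An unadjusted p under 0.05 was found for 9 plastid and 6 mitochondrial members, beside 1610 of all 16002 genes. The median plastid log2 difference was -0.22 and 61 of 71 values were negative, while the median over all genes was 0.0094. PSAB is not among the rows named by level here: it ranked 1 among plastid rows in dry seeds and 18 in imbibed seeds by mean CPM. At 7d + 24h, where 2.26% of genes passed, 2 plastid and 2 mitochondrial members passed, all higher in small seeds. These were ATCG00670, a subunit of the Clp protease, by 0.74 (SE 0.13, edgeR adjusted p = 0.014), PETD by 0.96 (SE 0.20, edgeR adjusted p = 0.027), ATMG00690 by 1.06 (SE 0.21, edgeR adjusted p = 0.022) and ATMG00630 by 1.01 (SE 0.24, edgeR adjusted p = 0.042). PETD was at 8.33, 10.8 and 9.11 scaled CPM in small and 5.69, 3.84 and 4.96 in large seeds at that time. ATMG00690 was at 16.8, 13.3 and 20.4 in small and 8.35, 6.95 and 8.69 in large seeds. All 4 members were apart between the sizes at 7d + 24h, but no call remained when large-seed library 2 or 3 of that time was left out. The PETD call was also lost without small-seed library 3, and those of ATMG00690 and ATMG00630 without small-seed library 1 or 3.

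Between 3d and 7d + 24h, the length of induction, light and temperature differed together and cannot be told apart. A change over time here means a difference between these 2 conditions. The mitochondrial share was higher at the later time without overlap in both sizes. Its ratio of means was 1.74 in small and 1.49 in large seeds. The plastid share was also higher without overlap in small seeds, with a ratio of 1.37. Each of these had an exact permutation p = 0.1, the smallest possible, and an adjusted p of 0.233. In large seeds the plastid share was 0.569% and 0.605% at the 2 times, with overlap. Without RRN26 the mitochondrial share was 0.0928% at 3d and 0.0933% at 7d + 24h in small seeds. RRN26 was at 1708, 1686 and 1422 scaled CPM at 3d and 2370, 2218 and 2365 at 7d + 24h in small seeds, a log2 difference of 0.53 (SE 0.16, edgeR adjusted p = 0.011). In large seeds it was at 1773, 1430 and 1314 and then 2329, 1634 and 1608, with overlap, and a log2 difference of 0.30 that did not pass (edgeR adjusted p = 0.11).

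Most genes of the series changed over this time: 60.9% passed in small seeds, 32.7% higher and 28.3% lower at 7d + 24h, and 65.9% passed in large seeds, 35.1% higher and 30.9% lower. Of 71 tested plastid members, 6 were called higher and 21 lower at 7d + 24h in small seeds on the TMM scale, but 32 higher and 4 lower on library totals. In large seeds 1 was called higher and 46 lower on the TMM scale, but 14 higher and 15 lower on library totals. Of 30 tested mitochondrial members, 4 were called higher and 16 lower in small seeds (8 and 10 on library totals), and 1 higher and 19 lower in large seeds (7 and 11 on library totals). TMM factors were 0.724 to 0.866 at 3d and 1.21 to 1.28 at 7d + 24h. Library totals moved the median over all genes to 0.72 in small and 0.68 in large seeds. The share of all genes called on library totals was not counted. The storage gene level was also lower at the later time, at most 16117 CPM against at least 146951, and its part in the scale was not tested. The sign differed between the scales for 24 of 71 plastid members in each size, and for 6 and 7 of 30 mitochondrial members in small and large seeds. Mitochondrial medians were negative on both scales, -0.97 and -0.30 in small and -1.19 and -0.57 in large seeds. The plastid median was -0.29 and then 0.38 in small seeds, and -0.69 and then -0.069 in large seeds.

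Several mitochondrial members fell on both scales and in both sizes. ATMG01170 was at 51.4, 39.8 and 41.9 scaled CPM at 3d and 12.3, 11.7 and 15.2 at 7d + 24h in small seeds, a log2 difference of -1.77 (SE 0.17, edgeR adjusted p = 5.4e-07). In large seeds it went from 46.0, 35.8 and 30.1 to 8.92, 7.32 and 8.00, a log2 difference of -2.20 (edgeR adjusted p = 7.9e-08). No library of one time reached the range of the other. ATMG00690 fell by 1.52 on the log2 scale in small and by 2.36 in large seeds, ATMG01360 by 1.67 and 1.88, and NAD9 by 1.36 and 1.47. NAD9 had been at 65.2, 47.2 and 43.0 scaled CPM at 3d in small seeds and was at 19.5, 19.4 and 22.0 at 7d + 24h. COX2 was called lower at 7d + 24h in both sizes on the TMM scale, with log2 differences of -1.48 in small and -1.19 in large seeds. RRN26 and ATMG00090 were higher at 7d + 24h on both scales in small seeds, ATMG00090 by 0.76 on the TMM scale. The ratio of RRN26 to ATMG01390 counts, which needs no scale, was 3.21 to 3.51 at 3d and 8.58 to 10.3 at 7d + 24h in small seeds, and 3.52 to 4.12 and 7.71 to 9.05 in large seeds. In both sizes the ranges of the 2 times were apart.

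Plastid members that fell on both scales in large seeds included PSBB, a core antenna protein of photosystem II, and PSAA, the partner of PSAB in photosystem I. PSBB went from 20.3, 15.9 and 11.8 to 4.37, 4.02 and 2.21 scaled CPM, a log2 difference of -2.19 (SE 0.34, edgeR adjusted p = 4.3e-05), and PSAA fell by 1.75. In small seeds PSBB and PSAA fell by 1.33 and 1.34 on the log2 scale, but these calls were lost on library totals. ATCG01090 fell on both scales, from 85.9, 79.6 and 63.2 to 31.0, 14.8 and 30.5 scaled CPM in small seeds (log2 difference -1.59) and by 2.01 in large seeds. ATCG00500 was higher at 7d + 24h in small seeds by 1.02 (edgeR adjusted p = 0.00063), on both scales. In large seeds the plastid member called higher on the TMM scale was ATCG00040 (chosen after its value was seen), by 0.53 there and by 1.15 on library totals. ATCG00740 had log2 differences of -0.66 and -0.69 in small and large seeds on the TMM scale, and the former was 0.0125 on library totals.

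**Figure D4:**
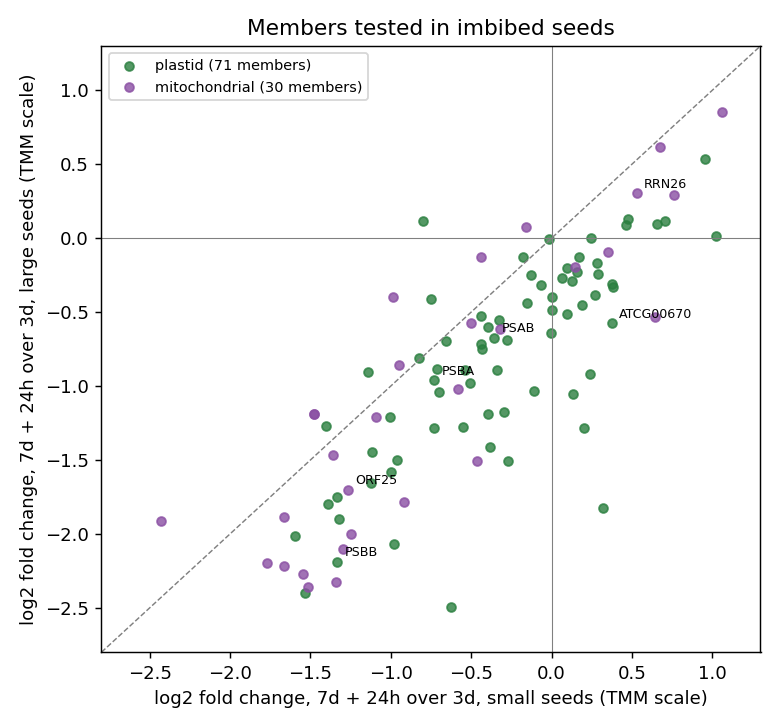
Log2 difference between 7d + 24h and 3d for each tested plastid and mitochondrial member, small seeds on the horizontal and large seeds on the vertical axis, on the TMM scale, with a dashed line where both are equal. Most points lie below 0 on both axes on this scale. On library totals the counts in small seeds turn to 32 plastid members called higher and 4 lower, where the median over all genes is 0.72.

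Whether the change over time differed between sizes was tested with the interaction term, which 0.331% of all genes passed. ATCG00670 was the member that passed: it was at 127, 115 and 102 scaled CPM at 3d and 145, 140 and 161 at 7d + 24h in small seeds, and at 121, 135 and 143 and then 99.4, 95.3 and 73.6 in large seeds. On the TMM scale ATCG00670 rose in small seeds by 0.38 and fell by 0.57 in large seeds (log2), whereas on library totals it rose in small seeds by 1.05 and had a difference of 0.045 in large seeds that did not pass. The difference of the changes was 0.95 (SE 0.19, edgeR adjusted p = 0.045) on the TMM scale and 1.00 on library totals (edgeR adjusted p = 0.041). It lay between 0.82 and 1.07 when one library was left out, but the call was lost in 9 of these 12 fits and when seeds were thinned to 20000 counts. A further 19 plastid members had an unadjusted p under 0.05 for this term, beside 1787 of all 16002 genes. Of the 71 plastid values, 64 were positive, with a median of 0.42. These members share libraries and scale and are not independent values. No mitochondrial member passed in edgeR or DESeq2, and 4 had an unadjusted p under 0.05.

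Most of the nuclear list was higher at the later time. Of 27 tested genes, 21 were higher and 3 lower at 7d + 24h in small seeds and 20 higher and 2 lower in large seeds, beside 32.7% and 35.1% of all genes higher in small and in large seeds. On library totals 25 were higher and none lower in each size. The share of all genes called on library totals was not counted. The median over all genes was 0.72 in small and 0.68 in large seeds on that scale, and that of the list 1.40 and 1.57. PAP12 was higher by 3.71 in small and 3.47 in large seeds, the sigma factor SIG6 by 1.78 and 1.62, and RNase J by 1.32 and 1.53. None passed the test between small and large seeds at 3d or at 7d + 24h, and none passed the interaction term, in edgeR or DESeq2. At an unadjusted p under 0.05 there were 3, 2 and 4 of them, beside 1610, 3045 and 1787 of all 16002 genes.

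Between single seeds of one condition the shares spread widely. The plastid share of a seed ranged from 0.166% to 0.988% in small seeds at 3d, with a median of 0.478%, and from 0.146% to 1.49% in large seeds at 3d, with a median of 0.646%. At 7d + 24h the lowest, median and highest plastid shares were 0.280%, 0.661% and 1.40% in small and 0.156%, 0.601% and 1.21% in large seeds. The mitochondrial share had medians of 0.205% and 0.202% at 3d and 0.354% and 0.303% at 7d + 24h in small and large seeds. Of the 384 seeds, 6 had under 20000 counts, a limit applied here after the data were seen, among them the large seed with 1.49%, which had 3962 counts and 44.8% of reads outside genes. Without those 6, the highest plastid share in large seeds at 3d was 0.893%, while the highest values of the other conditions were as given. The spread between seeds was wider than that between condition medians. Plastid and mitochondrial shares of the same seed went together, with Pearson's r of 0.56 in small and 0.60 in large seeds at 3d, and 0.56 and 0.78 at 7d + 24h, over 96 seeds each. Both shares of a seed have the same denominator and come from the same library, so these are descriptions.

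**Figure D5:**
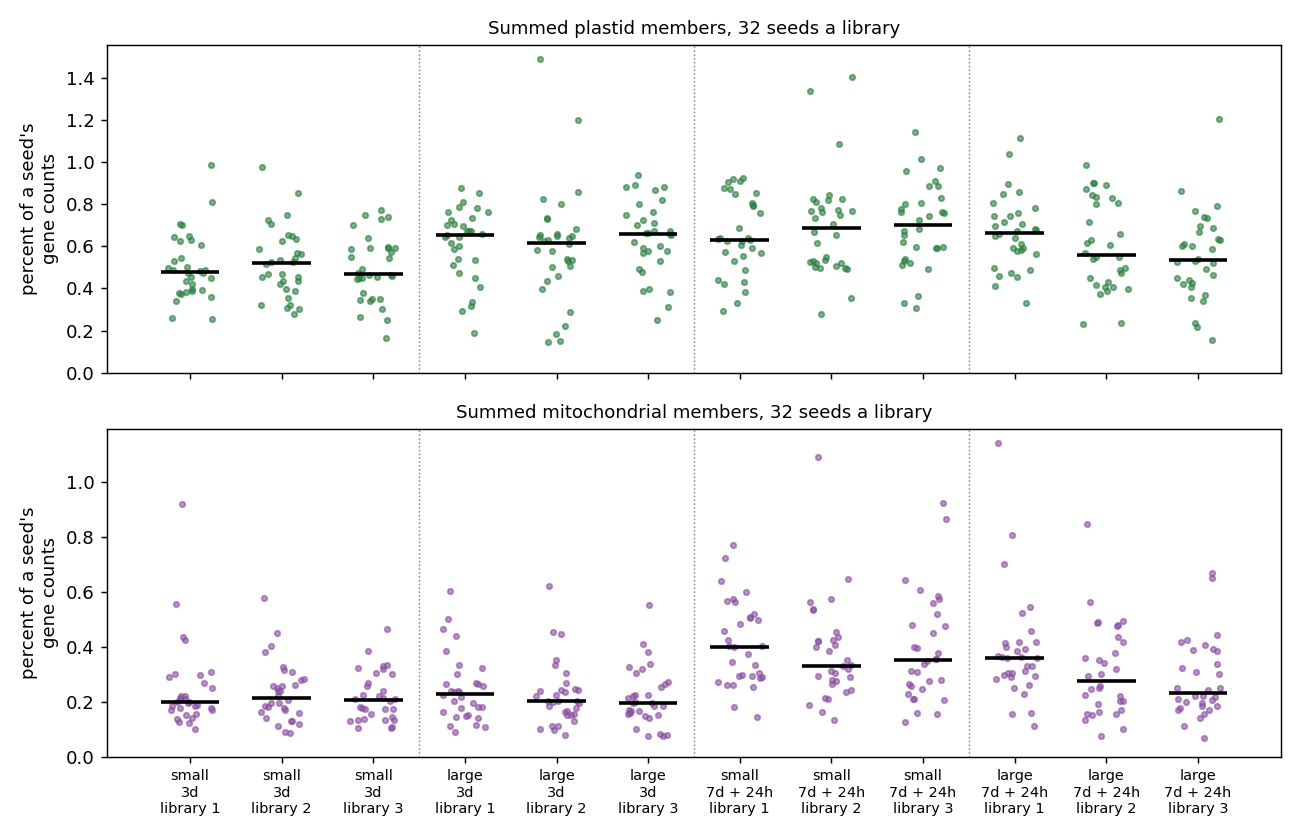
Percent of gene counts on plastid and on mitochondrial members in each of the 384 single seeds, by condition and library, with lines at the median of each library. Over each condition, median mitochondrial shares are 0.205% and 0.202% at 3d and 0.354% and 0.303% at 7d + 24h in small and large seeds, and single seeds of every condition spread over a several times wider range.

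The share of reads outside genes was set beside the plastid share of each seed. Within the 6 libraries of 3d, Pearson's r over 32 seeds was 0.57 to 0.79. At 7d + 24h the libraries differed: r was 0.66, 0.54 and -0.18 in small seeds and 0.047, 0.35 and 0.085 in large seeds. For the mitochondrial share r was 0.19 to 0.57 at 3d, and at 7d + 24h 0.61, 0.057 and -0.22 in small and 0.050, 0.39 and 0.26 in large seeds. Small-seed library 3 of 7d + 24h thus had the opposite sign for each genome. These values include seeds under 20000 counts. Over a condition, plastid r was 0.53 and 0.69 at 3d and 0.35 and 0.18 at 7d + 24h in small and large seeds. Without such seeds it was 0.55, 0.60, 0.18 and 0.18 in that order. Mitochondrial r was 0.37, 0.23, 0.0135 and 0.22 with them, and 0.37, 0.55, 0.077 and 0.22 without. The study removed genes whose read numbers over seeds followed the number of reads outside genes with r over 0.3. A like filter was computed here on shares: a gene's share of a seed's counts against the seed's share of reads outside genes. The genes it removed may therefore differ from those the study removed. Among genes that averaged 1 count or more in a seed, it kept 10 of 48 plastid members (20.8%), 8 of 17 mitochondrial members (47.1%) and 6736 of 12013 nuclear genes (56.1%). PSAB, RRN26, ATCG01130 and ATCG00740 were among those removed, while PETB, PSBC, PSBI, RPS14, NAD9 and ORF25 were kept. With this filter ATCG00670 and PETD were not among the genes tested at 7d + 24h, and no plastid member passed there.

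Dry and imbibed seeds differed in which plastid rows held the counts, and these levels come from tables made and scaled separately. In plain CPM, PSAB was at 193 to 1207 in dry and 58.5 to 89.0 in imbibed libraries, and PSBA at 11.6 to 134 and 8.37 to 17.7. ATCG01130 was at 130 to 511 in dry and 1078 to 1772 in imbibed libraries, RPS2 at 7.89 to 72.6 and 107 to 149, and RPS4 at 1.23 to 13.0 and 35.2 to 98.9. The PSAB to ATCG00740 ratio, 0.331 to 3.60 over all dry libraries, was 0.069 to 0.113 over all imbibed libraries. Extraction, library preparation and imbibition differed together between the tables and cannot be told apart.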

How the data were processed

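RNA of dry seed pools and of single imbibed seeds was measured by 3′ RNA-seq. The authors deposited raw counts of reads per gene, mapped with STAR 2.7.8a to TAIR10 according to the submitters' processing notes; the counter, strand setting and collapsing of molecular identifiers are not given in the sources used here. Reads outside genes (9.76% in single seeds) and ambiguous reads (0.256%) were kept out of totals and tests. Counts of the 32 seeds of a library were summed, since seeds are not replicates. Groups of imbibed seeds came from the sample labels. The dry libraries share a single sample label, and their size and pool were read from the names of the deposited count columns. All genes passing filterByExpr were fitted with edgeR 4.0.16 (quasi-likelihood test, TMM scaling, Benjamini-Hochberg adjusted p under 0.05) in R 4.3.3 with limma 3.58.1, 1 fit per table, after a check on simulated counts. SE is the log2 difference divided by the square root of F. Summed shares were compared by exact permutation in Python 3.11.15 (numpy 2.4.6, pandas 2.3.3, matplotlib 3.10.9). DESeq2 1.42.0, other scalings, filters, thinning, blocks and leaving out each library were alternatives. Dry libraries of 1 seed pool are paired by source: the correlation of their deviations from the size means averaged 0.0161 (-0.0501 to 0.116). Libraries of imbibed seeds are not stated to be separate cultures, so p-values measure the spread between libraries only. Intervals and p-values for counts cover these libraries, not the whole organelle RNA pool.

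Named were the 6 members of each genome with the highest mean CPM in each table and, in each comparison, up to 10 called members of each genome with the largest absolute log2 difference. The members and lists were chosen with earlier results of these data known. Mitochondrial sequence was not used here, because the reference (TAIR10.1) holds another mitochondrial sequence than the build of the files.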

Additional observations from a re-analysis of the deposited data

Results flagged for a closer look

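In groups of 4 dry libraries, 75 combinations of member and size were examined for a library far from the other 3, and 4 were found, where chance gives about 1 in 20. RPS2 was at 9.86 scaled CPM in the small-seed library of pool 3, with the next at 26.7. PETB was at 22.4 scaled CPM in the large-seed library of pool 3, with the next at 15.1. PETD was at 47.3 scaled CPM in the small-seed library of pool 2, with the next at 19.1. ATCG01090 was at 83.5 scaled CPM in the large-seed library of pool 3, with the next at 38.5.

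The change of ATCG00670, a Clp protease subunit, from 3d to 7d + 24h differed between small and large seeds by 0.95 on the log2 scale (edgeR interaction term, adjusted p = 0.045), with the limits given in the report.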

How the results depend on the processing

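Plastid and mitochondrial members called are given in that order, beside the edgeR counts in the report. DESeq2 called 7 plastid members between dry small and large seeds and 4 between small and large seeds at 7d + 24h. With no filter on low counts, 22 plastid members passed between dry small and large seeds, 8 between small and medium, 3 and 1 between medium and large, 1 and 2 between sizes at 3d, 10 and 8 at 7d + 24h, and 6 and 1 in the interaction. Dry libraries thinned to one depth gave 8 (small against large) and 3 (small against medium) plastid members. Library totals gave 1 plastid member between medium and large and 29 over time in large seeds. Only the 2 sizes compared gave 3 and 1 between medium and large, and upper-quartile factors gave 4 plastid members at 7d + 24h. The filter on genes modelled on the study's gave 0 plastid members at 7d + 24h and in the interaction. It gave 4 and 8 over time in small and 9 and 6 in large seeds, with 10 and 8 members tested. Seeds thinned to 20000 counts gave 1 mitochondrial member at 7d + 24h, 11 and 13 over time in small, 23 and 11 in large seeds, and 0 plastid members in the interaction. The cause of these differences was not tested, apart from fewer or more genes tested under filters and thinning.

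With the replicate block (seed pool in dry, library number in imbibed seeds), 2 plastid members passed between medium and large, 6 and 5 at 7d + 24h and 1 mitochondrial member in the interaction; it moved no other count of called members by over 1.5 times. Paired by pool, the exact test of a share cannot pass the threshold with 4 pools. Library numbers pair nothing by source in imbibed seeds: deviations of same-numbered libraries correlated at 0.0624 on average (-0.0673 to 0.284), and 6 of 12 libraries correlated best with their own number.

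Leaving out each library gave 12 to 15 plastid and 5 to 6 mitochondrial members between dry small and large seeds, 5 to 8 and 3 to 7 between small and medium, 0 to 2 and 0 to 1 between medium and large, 0 to 3 and 0 to 5 at 7d + 24h, 16 to 30 and 17 to 21 over time in small, 38 to 48 and 18 to 21 in large seeds, 0 to 1 for each genome in the interaction, and 0 at 3d. Signs turned for small differences: the plastid share between dry small and large seeds was -0.00203 percentage points without small-seed library 2 and up to 0.0601 without library 3, and between medium and large it was -0.0528 without medium library 1, 0.00567 without medium library 2 and 0.00582 without large-seed library 3. The mitochondrial share without RRN26 differed by -0.00495 between medium and large and by -0.00996 over time in large seeds. No other row was taken out of that share, and unnamed rows may hold further ribosomal RNA. As a median over seeds, the mitochondrial share between sizes at 3d differed by -0.00219 and the plastid share over time in large seeds by -0.0574. On library totals, ATCG00740 over time in small seeds was at 0.0125 (log2), and over time in large seeds ATCG00170 was at 0.22, ATCG00800 at 0.31 and ATCG01130 at 0.19. Of 84 results on single members, 1129 alternative values kept the call and direction and 106 lost the call. The plastid share without rRNA and tRNA rows was not run, since those rows carry no names in the annotation used. Depth limits the members: 30 of 133 plastid and 11 of 152 mitochondrial members could be tested in dry seeds.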
